A study of Mus musculus with 24 samples.

Results

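The subunits of the transcription factor AP-1 described here are 6 genes, Fos, Fosb, Fosl2, Jun, Junb and Jund, found by symbol among 54235 features of the deposited count matrices. All 6 were detected in both brain regions sampled, motor cortex and dorsal striatum of the mouse. Their unique molecular identifiers (UMIs, each a tag for 1 captured RNA molecule) were summed per mouse pool in each cell class. The study asked which cells are active while mice learn a forelimb reaching task. Single-cell 3′ RNA libraries were made from 6 groups with 2 pools each. Every pool held tissue of 2 mice, 1 labelled M and 1 labelled F, and each hemisphere was a separate library.

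Motor cortex came from Fos-CreER::Ai9 mice and striatum from Arc-CreER::Ai9 mice, so region and driver line cannot be told apart in any comparison between the regions. In these mice a Cre recombinase driven from Fos or Arc acts in the presence of 4-hydroxytamoxifen and switches on a tdTomato reporter. Early groups were trained for 2 days and late groups for 8 days, whereas control groups had 4-hydroxytamoxifen and no training. Tissue was taken 3 days after labelling in every group. The labels do not say whether the driver allele still makes Fos or Arc, and they give no age or strain background. All cells shared a papain digestion of 1 h at 37 °C and removal of dead cells before capture, and no group without dissociation is among the samples.

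AP-1 is a dimer of a Fos and a Jun family protein, or of Jun family proteins alone, that binds DNA through a basic leucine zipper. Fos, Fosb, Jun and Junb are classic immediate early genes: their transcription rises within minutes of a stimulus, without new protein synthesis, and their RNA decays quickly. Fosl2 and Jund are usually induced less steeply, and Jund is expressed in many resting cells. In brain, Fos is widely used as a mark of recent neuronal activity, but glial and vascular cells also induce these genes, and enzymatic dissociation at warm temperature is a known inducer.

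The promoters of 4 members are shown because the results turn on whether members moved together. Fos lies at chr12:85473890-85477273 on the plus strand, and Fosb at chr7:19302696-19310051 on the minus strand. Jun lies at chr4:95049034-95052222 on the minus strand, and Junb at chr8:84974484-84978718 on the minus strand (GENCODE M21, build GRCm38). Jun, Junb and Jund have 1 exon, Fos and Fosl2 have 4 and Fosb has 5 in the transcript with the most. Fosl2 (chr5:32135801-32157842, plus strand) and Jund (chr8:70698949-70700616, plus strand) are not shown, since RefSeq and GENCODE place their starts far apart. The sequences below come from RefSeq on GRCm38.p6 and run 5′ to 3′ on the gene's strand. Those of Fos, Fosb and Jun lie just upstream of the RefSeq start, and that of Junb runs a few bases past it. Capitals mark the letters TATAAA, the only searched motif found.
Fos, chr12:85473740-85473879: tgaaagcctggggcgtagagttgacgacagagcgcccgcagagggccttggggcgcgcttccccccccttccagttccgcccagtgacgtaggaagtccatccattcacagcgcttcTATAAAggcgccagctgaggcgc
Fosb, chr7:19310056-19310195: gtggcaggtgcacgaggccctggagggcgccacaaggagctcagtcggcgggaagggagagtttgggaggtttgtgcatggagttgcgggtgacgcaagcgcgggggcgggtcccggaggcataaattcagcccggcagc
Jun, chr4:95052233-95052372: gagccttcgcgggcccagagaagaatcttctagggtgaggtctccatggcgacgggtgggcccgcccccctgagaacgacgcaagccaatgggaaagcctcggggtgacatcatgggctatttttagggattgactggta
Junb, chr8:84978743-84978898: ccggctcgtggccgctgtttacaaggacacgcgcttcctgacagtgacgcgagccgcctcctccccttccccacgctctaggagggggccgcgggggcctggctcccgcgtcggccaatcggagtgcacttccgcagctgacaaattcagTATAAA

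Both strands of the window from 250 bases before to 50 after each RefSeq start were searched in 32851 promoters, those of all 6 members included. TATAAA was found in 13.6% of all promoters and in 2 of 6 members, Fos and Junb. In Junb it lies at the RefSeq start, which is 30 bases upstream of the GENCODE start. The AP-1 site (TGACTCA or TGAGTCA) was found in 5.2% of promoters, the cAMP response element (TGACGTCA) in 1.79% and the CArG box in 1.63%, and none of these 3 in any member. No match says only that these exact letters are not in this window, and 3′ reads do not show which start was used.

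The 23 matrices used held 541 to 10030 cell barcodes and 5260446 to 30470621 UMIs per library. Of control replicate 1 of dorsal striatum, the right hemisphere library was not analysed here. Pairs of libraries shared 0 to 148 barcodes. After filtering, 47985 cells of motor cortex and 50627 of striatum remained, and 1135 and 3026 of them stayed without a class. Clusters were named from markers as glutamatergic neuron-like, spiny projection neuron-like and so on, and are written without "-like" from here, except for the D1-like and D2-like neurons. Neurons were deeper than most other classes, at 5294 to 12995 median UMIs per cell in cortical glutamatergic neurons against 1228 to 2745 in microglia of both regions. The kit version is not given per library, so the kit classes named below are an inference from shared barcodes. The number of classes was set beforehand, and class A pools also came from other flow cells than class B pools. Shared barcodes split the pools into a class A (control 1 and late 1 of each region) and a class B (the other 8 pools), and class A libraries had a median mitochondrial share of at most 1.63%, against at least 1.83% in class B.

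All 6 AP-1 genes were lower in the mean of the neuronal classes than in that of the non-neuronal classes, in both regions. Single classes could go the other way, as given below for Fosl2 and Junb. In motor cortex the fitted log2 change of neuronal against non-neuronal classes was -3.84 ± 0.13 (SE, 6 pools) for Fosb, -3.68 ± 0.14 for Jun, -3.30 ± 0.10 for Junb, -2.66 ± 0.13 for Fos, -2.58 ± 0.09 for Jund and -2.12 ± 0.11 for Fosl2. For Fosb that is 14.3 times lower, and for Fosl2 4.34 times. Such folds compare shares of a class's UMIs. Neurons held more UMIs per cell than most other classes, so these are not folds of UMIs per cell. In striatum the change was -4.49 ± 0.15 for Jun, -4.25 ± 0.16 for Fosb, -4.24 ± 0.14 for Fos, -4.15 ± 0.12 for Junb, -2.64 ± 0.08 for Jund and -2.38 ± 0.13 for Fosl2, or 22.5 times lower for Jun and 5.21 times for Fosl2. The 6 of 6 members called in each region compare with 28.6% of 14305 genes lower in neurons in motor cortex and 29.3% of 14339 in striatum. The median change of all genes was 0.30 and 0.09. Each class counted alike in the neuronal and non-neuronal means. In striatum 230 cholinergic neurons thus weighed as much as 18409 spiny projection neurons, and the cholinergic neurons lay lowest for every member but Fosl2. The largest adjusted p among the members was 5.1e-28 (Fosl2, motor cortex; edgeR quasi-likelihood test). In this fit each sum of a class in a pool was an observation, with the pool as a term. The classes of a pool share mice and library, so SE and p rest on the scatter of classes within pools. Part of the variance estimate is borrowed from all genes. Neuroblasts or progenitors stood on neither side.

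**Figure D1:**
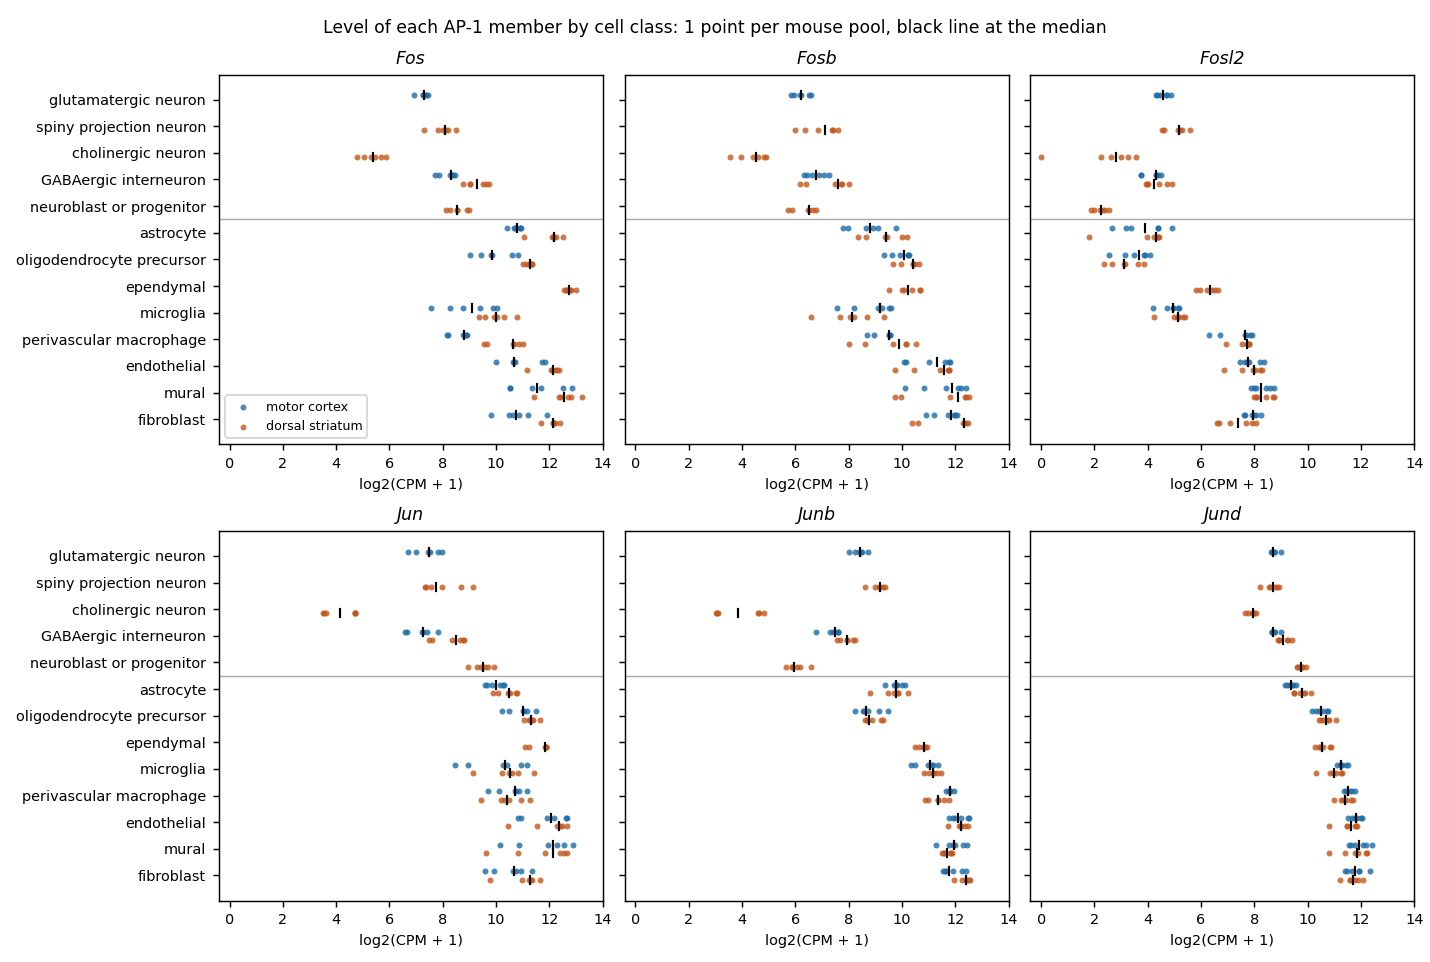
Each panel gives 1 gene, with log2(CPM + 1) of UMIs summed per mouse pool on the x axis and cell classes on the y axis; points are pools (blue motor cortex, orange dorsal striatum) and black lines medians. Classes above the grey line are neurons and neuroblasts. Endothelial and mural points lie to the right of every neuronal point in all 6 panels, neuroblasts aside, and cholinergic neurons lie farthest left by their median for every gene but Fosl2.

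Fos, the founding member of its family, spanned a wide range over the striatal classes. Its level there was 6042 to 8234 CPM (UMIs of the gene per 1000000 UMIs of the class and pool; median 6764, 6 pools) in ependymal cells, which line the ventricles. Striatal mural cells had 2776 to 9559 (median 6076) and astrocytes 2136 to 5867 (median 4563). At the other end, spiny projection neurons had 157.2 to 363.9 (median 268.9) and cholinergic neurons 26.6 to 57.3 (median 40.8). Every ependymal pool lay above every pool of spiny projection, cholinergic and GABAergic neurons. In motor cortex Fos was at 121.1 to 173 CPM (median 156.3) in glutamatergic neurons, 208.5 to 346.7 (median 316.5) in GABAergic interneurons and 1366 to 1960 (median 1779) in astrocytes, with no overlap between these 3 classes.

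The order of classes was only partly resolved. For Fos in motor cortex it ran from mural through endothelial, fibroblast, astrocyte, oligodendrocyte precursor, microglia, perivascular macrophage and GABAergic interneuron to glutamatergic neuron. Of its 8 neighbouring pairs, 3 differed by less than 1 SD of their difference over pools: endothelial and fibroblast, fibroblast and astrocyte, and microglia and perivascular macrophage. In striatum the order was ependymal, mural, fibroblast, astrocyte, endothelial, oligodendrocyte precursor, perivascular macrophage, microglia, GABAergic interneuron, neuroblast or progenitor, spiny projection neuron and cholinergic neuron. There, 6 of 11 neighbouring pairs were within 1 SD, among them all those of the first 5 classes. For the other members 3 to 5 of 8 pairs in motor cortex and 3 to 7 of 11 in striatum were within 1 SD.

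Fos differed between classes in how many cells carried it. In cells thinned to 1000 UMIs, which every cell kept had, a median of 100% of ependymal cells held a Fos UMI (97.4% to 100% over pools; 100% before thinning). The thinned share was 13.5% of cortical glutamatergic neurons (11.0% to 15.7%), and 54.2% before thinning. In striatum it was 17.2% of spiny projection neurons (12.5% to 22.1%; 39.7% before) and 2.82% of cholinergic neurons (0% to 10.5%; 35.5% before). Cholinergic neurons came from the same libraries as the other striatal classes, at 11654 to 25243 median UMIs per cell. Free RNA was not removed, and levels this low were not separated from it. Of the thinned Fos UMIs, the top 5% of cells held 44.7% in glutamatergic neurons and 51.2% in spiny projection neurons, against 10.9% in ependymal cells. At 1000 UMIs per cell, both the share of cells with a UMI and this share depend on the mean level by counting alone. Whether Fos was more concentrated than its level gives was not tested.

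Against the mean of the other classes, 47 of 54 gene and class pairs were called in motor cortex (26 higher, 21 lower) and 64 of 72 in striatum (37 higher, 27 lower). These shares stand beside 60.3% and 55.9% of all genes and classes tested. All 6 members were higher in endothelial and mural cells of both regions. The endothelial log2 change ran from 1.501 (Jund) to 2.54 (Fosl2) in motor cortex and from 1.55 (Jund) to 3.08 (Fosl2) in striatum. Mural cells, the pericytes and smooth muscle of vessels, ran from 1.55 (Jund) to 2.79 (Fosl2) and from 1.69 (Jund) to 3.47 (Fosl2). All 6 were lower in cortical glutamatergic neurons and in the GABAergic interneurons of both regions. Cholinergic neurons had the lowest value of the striatal classes for every member but Fosl2, from -2.89 ± 0.14 for Jund to -6.58 ± 0.31 for Jun.

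Some classes held high and low members side by side. In cortical astrocytes Fos was higher than in the other classes (1.04 ± 0.14), whereas Fosb (-0.89 ± 0.15), Junb (-0.81 ± 0.12), Jund (-1.64 ± 0.12) and Fosl2 (-2.31 ± 0.22) were lower and Jun was not called (-0.26 ± 0.15). Cortical oligodendrocyte precursors, the dividing glia that give rise to myelin-forming cells, had Jun higher (0.54 ± 0.13) and Junb (-2.17 ± 0.13) and Fosl2 (-3.01 ± 0.18) lower. Cortical perivascular macrophages had Fos lower (-0.91 ± 0.18) and Fosl2 higher (2.24 ± 0.17). In cortical microglia Junb (1.402 ± 0.10) and Jund (1.501 ± 0.09) were higher, and Fos was not called (0.005 ± 0.15). Thus Fos and Junb were called in opposite directions in cortical astrocytes and perivascular macrophages.

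Fosb, which also makes a truncated protein known to last in striatal neurons after repeated stimulation, was high in fibroblasts and mural cells, whose levels lay within 1 SD of each other in both regions. In fibroblasts it stood at 1318 to 5704 CPM (median 5078) in striatum, against 62.0 to 193.4 (median 139.3) in spiny projection neurons. In motor cortex it was 1896 CPM in the lowest fibroblast pool (median 3674), and 56.4 to 95.1 (median 72.3) in glutamatergic neurons. The 3′ counts do not separate the splice forms. No pool of a neuronal class reached the lowest fibroblast pool.

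Fosl2, a Fos family member without the strong activation domain of Fos, had another order than the rest. Its level was 235 to 424.2 CPM (median 304.5) in cortical mural cells and 76.9 to 238.5 (median 200.9) in perivascular macrophages. Oligodendrocyte precursors held 4.81 to 16.02 (median 11.8) and astrocytes 5.38 to 28.8 (median 14.6), medians that lay below the 18.7 to 28.0 (median 22.9) of glutamatergic neurons. The astrocyte and neuron ranges overlapped, and those of precursors and neurons did not. In striatum the lowest Fosl2 median was in neuroblasts or progenitors, at 2.69 to 4.91 CPM (median 3.77). Spiny projection neurons held 22.2 to 46.9 (median 35.1) and were not called against the other classes (-0.23 ± 0.12).

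Jun, the main partner of Fos, was at 1804 to 6493 CPM (median 4238) in cortical endothelial cells. In glutamatergic neurons it was 103.6 to 246.7 (median 176.2), far below. Neuroblasts or progenitors of striatum held 490.7 to 978.5 (median 727) and spiny projection neurons 162 to 561.6 (median 217.9), ranges that overlapped only through the highest spiny projection pool. Junb, which can oppose Jun on shared targets, went the other way in the same cells. Neuroblasts had 48.8 to 94.9 CPM of Junb (median 61.7) and spiny projection neurons 394.8 to 663.8 (median 571.2), with no overlap. Striatal oligodendrocyte precursors, at 395 to 630 (median 441), overlapped the spiny projection neurons and had the lower median. Cortical precursors (299 to 713, median 404) overlapped the glutamatergic neurons. In cortical microglia Junb was 1300 to 2604 (median 2128), above every pool of the neurons.

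Jund, the member least tied to stimulation, was the most even over classes. It ran from 201.7 to 268.9 CPM (median 244.9) in cholinergic neurons to 1762 to 4745 (median 3641) in striatal mural cells. Cortical glutamatergic neurons (394.8 to 508.5, median 413) and GABAergic interneurons (401 to 511.5, median 413.3) overlapped almost fully. Neuroblasts or progenitors had 770.8 to 968.3 (median 859.5), above all 6 pools of spiny projection neurons (297.9 to 482.3).

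Among subtypes of cortical neurons, Fos was at 108.9 to 129.5 CPM (median 127.1) in layer 2/3 neurons and 120 to 166.7 (median 152.5) in a layer 4/5 cluster of 914 cells named from Rorb, Endou and Deptor. That cluster does not hold all Rorb cells: 2 clusters of 2070 and 2267 cells with Rorb among their 10 leading genes stayed unnamed and are not in this value. Layer 6 corticothalamic neurons spanned 90.1 to 201.2 (median 161.3) and near-projecting neurons 87.0 to 167.4 (median 139.1), and all 4 ranges overlapped. Among cortical interneurons Fos was 216.8 to 450.6 (median 356.1) in Lamp5 cells, 186.1 to 295.2 (median 239.7) in parvalbumin cells and 120.8 to 243.9 (median 156.9) in Vip cells. These too cover only named clusters: 2 clusters closest to Vip (634 and 414 cells) and 4 closest to Lamp5 (120 to 520 cells) had under 3 markers and stayed unnamed. Fosl2 was 4.19 to 9.54 CPM in layer 6b and 3.36 to 10.6 in near-projecting neurons, below its 20.8 to 31.0 in layer 2/3. These subtype levels are descriptions without a test. Subtype limits moved with the clustering: with 1 of 2 other random seeds no layer 4/5 subtype was named, and the Vip subtype went from 791 cells to 425 with the other.

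The genes around AP-1 showed the same split between neurons and other cells in part. Of 26 other immediate early genes, 21 were lower and 4 higher in neurons of motor cortex, and 22 lower and 3 higher in striatum (median log2 change -2.15 and -3.26). Klf4, a zinc finger factor of vessels, was -4.94 ± 0.14 (adjusted p = 5.29e-42) and -5.50 ± 0.16 (9.18e-46). Npas4, an activity gene of neurons, was higher at 3.75 ± 0.11 in motor cortex. Among 12 genes that shut the response off, 7 were lower and 3 higher in motor cortex and 10 lower and 1 higher in striatum. They included Zfp36, which binds AU-rich RNA and speeds its decay, at -6.84 ± 0.21 and -7.85 ± 0.18, and the MAP kinase phosphatase Dusp1 at -2.59 ± 0.11 and -3.53 ± 0.11.

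Upstream kinases and factors stood near the background of all genes, of which 7182 of 14305 were higher in cortical neurons and 6096 of 14339 in striatal neurons. Of 22 tested, 13 were higher and 7 lower in cortical neurons, and 13 higher and 6 lower in striatal neurons. Mapk10, a Jun kinase of neurons, was 3.70 ± 0.08 and 3.44 ± 0.10. Of 12 other AP-1 family genes tested out of 13, 9 were lower and 1 higher in each region, with Maff at -5.86 ± 0.13 and -6.06 ± 0.14 and Atf3 at -5.97 ± 0.18 and -6.04 ± 0.17. Genes with known AP-1 sites were split, 7 higher and 7 lower of 15 in motor cortex and 3 higher and 6 lower of 14 in striatum. The neuropeptide precursors Scg2 (5.61 ± 0.10) and Vgf (5.48 ± 0.12) led the higher group in motor cortex. Heat shock genes, which respond to handling, were split too: 7 higher and 5 lower of 14, and 7 higher and 6 lower of 14. Hspa1a was lower at -3.82 ± 0.17 and -3.64 ± 0.17, while Hsp90aa1 was higher in motor cortex at 1.13 ± 0.07. The part of handling in the AP-1 levels was not tested.

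Across the 21 combinations of region and class, members tracked each other with Pearson r from 0.548 (Fos and Fosl2) to 0.901 (Fosb and Jun). Among 15634 genes, the pattern most like Fos was that of Gm42418 (r = 0.903), Fkbp9 (0.887) and Ccnd3 (0.86). For Fosb it was Klf4 (0.953), Nr4a1 (0.938) and Cebpd (0.921), and for Junb it was Csrnp1 (0.963), Nr4a1 (0.933) and Sertad1 (0.928). Jun was most like Sp1 (0.916), Kat6a (0.909) and Gab1 (0.904). Among the genes most like Fosl2 were Ahnak (0.939) and Tmem140 (0.903), and Jund was most like Tagln2 (0.944), Zc3hav1 (0.94) and Maff (0.94). The combinations share pools and differ in depth, and the values are descriptions.

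Microglia held a subset with high cytokine transcripts, and AP-1 members other than Fosl2 were lower in it in most pools. In the 4 striatal pools with at least 20 such cells, all of kit class B, Fos was 260.9 to 293.8 CPM in cytokine-high and 1585 to 2537 in other microglia. The mean log2 difference was -2.71 ± 0.33 (SD, n = 4), and -2.46 ± 0.88 for Jun, -1.91 ± 0.29 for Fosb, -1.08 ± 0.18 for Junb and -0.24 ± 0.08 for Jund, each lower in 4 of 4 pools. Fosl2 was lower in 3 of 4 (-0.39 ± 0.66). In motor cortex Fos was lower in 4 of 5 pools (-2.24 ± 1.502, SD, n = 5), the exception being late replicate 1, the only class A pool of the 5. Cortical Fosb and Jund were lower in 5 of 5 pools (-2.11 ± 1.196 and -0.41 ± 0.30) and Jun and Junb in 4 of 5 (-1.77 ± 1.13 and -0.62 ± 0.44), whereas Fosl2 was higher in 3 of 5 (0.06 ± 0.44). Other microglia had 188.9 and 305.1 CPM of Fos in the cortical class A pools and 596.4 to 1675 in class B. The other microglia joined 3 clusters in motor cortex and 2 in striatum. The cortical cluster of 3138 cells had Egr1, Jun and Fos among its 10 leading genes, and the striatal cluster of 2012 cells had Egr1 and Egr3, while the remaining clusters had none of these. How far these clusters carry the difference was not tested. The subset was clustered from the same cells, so these are descriptions.

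**Figure D2:**
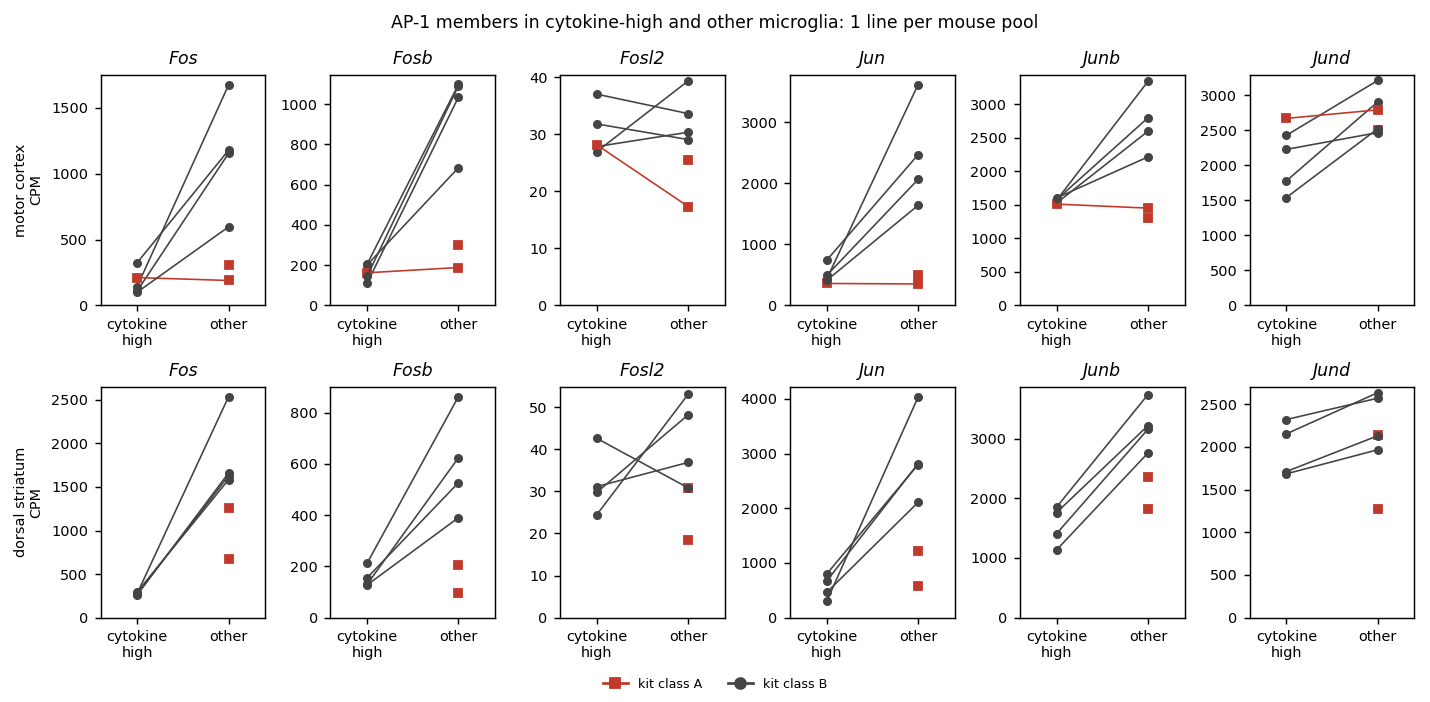
CPM of each gene in cytokine-high and other microglia, with 1 line per mouse pool, red squares for kit class A and black circles for class B, motor cortex above and dorsal striatum below. Points without a line are pools with under 20 cytokine-high cells. For Fos, Fosb, Jun and Junb every class B line climbs to the right.

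The kit classes differed in AP-1 levels beyond microglia, to a degree that varied with member, region and stage. Fosb was lower in the class A pool than in the class B pool of the same group in 9 of 9 cortical classes, in control and in late mice, with median log2 differences of -0.82 and -1.07. In striatum this held in 11 of 12 classes in both stages (-1.0 and -1.62). Jun was lower in 9 of 9 cortical classes in both stages (-1.03 and -1.17), and in 9 of 12 and 12 of 12 striatal classes (-0.36 and -1.12). Cortical Fos was lower in class A in 9 of 9 control and 7 of 9 late classes (-0.77 and -0.72), and cortical Junb in 9 of 9 and 8 of 9 (-0.61 and -0.29). Striatal Fosl2 was lower in 9 and 11 of 12 classes (-0.67 and -0.47), and striatal Jund in 8 and 12 of 12 (-0.24 and -0.66). Cortical Jund went otherwise, lower in 5 of 9 control and 1 of 9 late classes (-0.02 and 0.35). Striatal Fos and Junb were lower in 4 of 12 control classes (0.10 and 0.09) and 8 of 12 late classes (-0.17 and -0.15) each. Cortical Fosl2 was lower in 7 and 6 of 9 (-0.46 and -0.45). The 2 early pools, both class B, differed too. In motor cortex early 1 minus early 2 had medians of 0.46 for Fos, 0.19 for Fosb, 0.41 for Jun, 0.03 for Junb, 0.10 for Jund and -0.53 for Fosl2. In striatum early 1 was lower in 8 to 11 of 12 classes for each member, with medians of -0.60 for Fosl2, -0.49 for Jun, -0.25 for Junb, -0.19 for both Fos and Jund and -0.16 for Fosb. For Fosl2 in both regions, and for Fos and Junb in striatum, these differences within class B were about as large as those between the kit classes or larger, in both stages. For striatal Jun (-0.49 against -0.36) and cortical Jund (0.10 against -0.02) this held against the control difference only. Striatal Jund was close to it (-0.19 against -0.24). Kit, flow cell and mice cannot be told apart here, and stage comparisons carried kit class as a term.

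No AP-1 gene passed the test for a change with training in any class. In motor cortex 0 of 53 gene and class pairs were called when early or late mice were set against controls, or late against early mice, beside 0.025%, 0.0346% and 0.0143% of all genes and classes called. In striatum 0 of 71 pairs were called, beside 0.0256%, 0.0176% and 0.0185%. DESeq2 also called 0 in each of the 6 tests. Taking p without adjustment, 2, 9 and 3 pairs lay under 0.05 in motor cortex, or 3.77%, 17% and 5.66% of those tested, beside 3.33%, 4.07% and 2.44% of all genes and classes (edgeR). In striatum there were 7, 7 and 4, or 9.86%, 9.86% and 5.63%, beside 5.62%, 5.98% and 6.56%. The smallest adjusted p was 0.438, for Fos in striatal perivascular macrophages, late against control (log2 change -1.08 ± 0.28). With 2 pools per group such a p does not show that levels were alike.

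Fos in cortical glutamatergic neurons was 121.1 and 151.6 CPM in the control pools, 165.2 and 173 in the early pools and 160.9 and 150.7 in the late pools. Both early pools lay above both control pools, while 1 late pool fell within the control range and the other between the control and early ranges. The early against control change was 0.28 ± 0.16 (adjusted p = 1, edgeR). Junb gave 254.8 and 301.5 in control, 364.5 and 425.9 in early and 351.8 and 336.8 in late pools, with control below both (0.49 ± 0.15 for early against control, unadjusted p = 0.0157, adjusted p = 1, edgeR). In striatal spiny projection neurons Fos was 278.5 and 259.3 in control, 157.2 and 293.9 in early and 224.4 and 363.9 in late pools, which overlapped. Jun there was 186.1 and 249.7 in control, 164.2 and 408 in early and 162 and 561.6 in late pools, so that the replicates of 1 stage lay farther apart than the stages.

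Some striatal pairs were called when 1 pool was left out. That leaves 1 pool in its group, which is assumed to vary like the other groups. Without early replicate 2, Fos, Fosl2 and Jun of spiny projection neurons passed for early against control (-0.91, -1.02 and -0.95). Fos and Jun there (1.04 and 1.49), Fosb of ependymal cells (1.22) and Fosl2 of astrocytes (2.91) then passed for late against early. Without control replicate 2, Jun of mural cells (-1.84) and Jund of oligodendrocyte precursors (-0.81) passed for early against control. With no filter on low counts, spiny projection neurons gave Fosl2 (-0.63) for early against control, Jun (0.56) for late against control, and Fos (0.52) and Jun (0.69) for late against early. Pools of 1 flow cell gave the differences within a batch. For Fos, late 1 minus control 1 was positive in 4 and negative in 5 cortical classes, and early 1 minus control 2 in 3 and 6. In striatum these were 5 and 7, and 5 and 7. Other members were more one-sided. Striatal Jund was lower in late 1 than in control 1 in 12 of 12 classes (median -0.36) and in early 1 than in control 2 in 11 of 12 (-0.27). Fosl2 was lower in early 1 than in control 2 in 9 of 9 cortical (-0.32) and 11 of 12 striatal classes (-0.65), and late 1 minus control 1 gave it medians of 0.14 and 0.06. Striatal Jun was lower in late 1 than in control 1 in 10 of 12 classes (-0.69), and striatal Junb in early 1 than in control 2 in 9 of 12 (-0.25). Cortical Jund was lower in early 1 than in control 2 in 8 of 9 classes (-0.11), and cortical Junb was higher in late 1 than in control 1 in 7 of 9 (0.16). The others moved one way in at most 8 of 12 or 6 of 9 classes. Each such difference compares 1 pool with 1 pool and has no test.

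**Figure D3:**
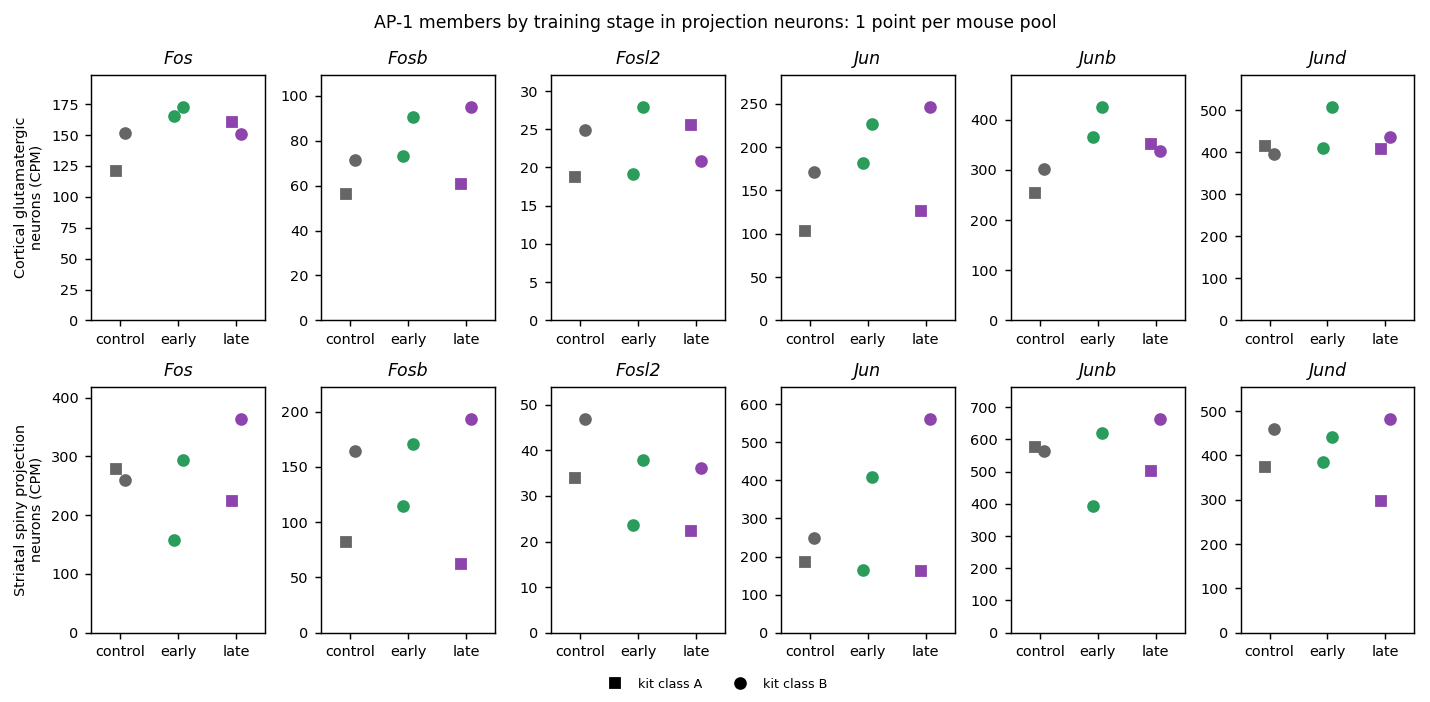
CPM of each gene in cortical glutamatergic neurons (top) and striatal spiny projection neurons (bottom) by training stage, with 1 point per mouse pool, squares for kit class A and circles for class B, y axes from 0. The striatal late pools spread from 162 to 561.6 CPM for Jun, wider than the gaps between stages.

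No AP-1 gene passed the test between hemispheres. Contralateral against ipsilateral to the trained limb, 0 of 47 pairs were called in motor cortex and 0 of 52 in striatum, beside 0.0777% and 0.0241% of all genes and classes. There were 1 and 4 pairs at an unadjusted p under 0.05 (2.13% and 7.69%, beside 4.87% and 3.62% of all genes and classes), and the smallest adjusted p was 0.898 and 0.165 (edgeR). The latter was Fosl2 in striatal GABAergic interneurons (0.95), which passed without late replicate 1 (1.28) and with no filter on low counts (0.92).

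Fos was lower in motor cortex than in striatum in 7 of the 8 classes found in both. The log2 change was -1.78 ± 0.19 in perivascular macrophages, -1.33 ± 0.21 in fibroblasts, -1.29 ± 0.22 in astrocytes, -1.28 ± 0.18 in oligodendrocyte precursors, -1.199 ± 0.11 in GABAergic interneurons, -1.06 ± 0.23 in microglia and -1.05 ± 0.21 in endothelial cells. Mural cells gave -0.87 ± 0.20 (adjusted p = 0.0572, edgeR). GABAergic interneurons had 208.5 to 346.7 CPM in motor cortex and 436.2 to 860.5 in striatum, and the astrocyte ranges, 1366 to 1960 and 2136 to 5867, did not overlap either. Microglia overlapped, at 189.3 to 1035 and 662.3 to 1753. In all, 12 of 48 gene and class pairs were called, every one lower in motor cortex, beside 6.56% of all genes and classes called lower.

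The other calls were in GABAergic interneurons (Jun -1.195 ± 0.11, Junb -0.62 ± 0.13, Fosb -0.58 ± 0.14, Jund -0.44 ± 0.11) and astrocytes (Fosb -0.63 ± 0.19). Fosl2 was called in 0 of 8 classes, with 0 at an unadjusted p under 0.05 (edgeR), and DESeq2 called 17 of the 48 pairs. Fosb in microglia lay on the other side, at 0.71 ± 0.20 (adjusted p = 0.154, edgeR). Early 2 pools of both regions shared a flow cell, as did late 2 pools, and Fos was lower in motor cortex in all 8 classes in both pairs (-0.53 to -2.27). Arc, the gene of the striatal driver line, was -1.75 ± 0.41 in astrocytes (adjusted p = 0.00264, edgeR) and -0.44 ± 0.17 in GABAergic interneurons (adjusted p = 0.0655, edgeR). It lay on the other side in microglia (1.11 ± 0.30, adjusted p = 0.127, edgeR) and oligodendrocyte precursors (0.55 ± 0.38, adjusted p = 0.673, edgeR), neither called.

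In 4 of these comparisons leaving out 1 pool moved the adjusted p across 0.05, with little change in size. Endothelial Fos was lost (-0.96 to -1.03) without striatal early 2 or late 2, or cortical control 1 or late 2, and with class B pools alone (-0.91, adjusted p = 0.113, edgeR). Microglial Fos was lost (-0.87 to -1.06) without striatal control 1, early 1 or late 2, or cortical control 1, late 1 or late 2, and with class B pools alone (-0.62, adjusted p = 0.291, edgeR). Astrocyte Fosb was lost (-0.48 to -0.53) without striatal control 1 or early 2, or cortical control 2. With stricter cells, where all 3 were still tested, endothelial Fos (-0.96), microglial Fos (-0.77) and astrocyte Fosb (-0.48) were lost as well. Without kit class as a term all 3 were lost too, as was Fosb in GABAergic interneurons (-0.65). Mural Fos was called without striatal early 1 (-0.97) and without cortical early 1 (-1.08). It was also called with DESeq2 (-0.89), another scaling (-0.89), doublets kept (-0.83) and no low-count filter (-0.82). Fos in perivascular macrophages, fibroblasts, astrocytes, oligodendrocyte precursors and GABAergic interneurons was called whichever pool was left out.

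**Figure D4:**
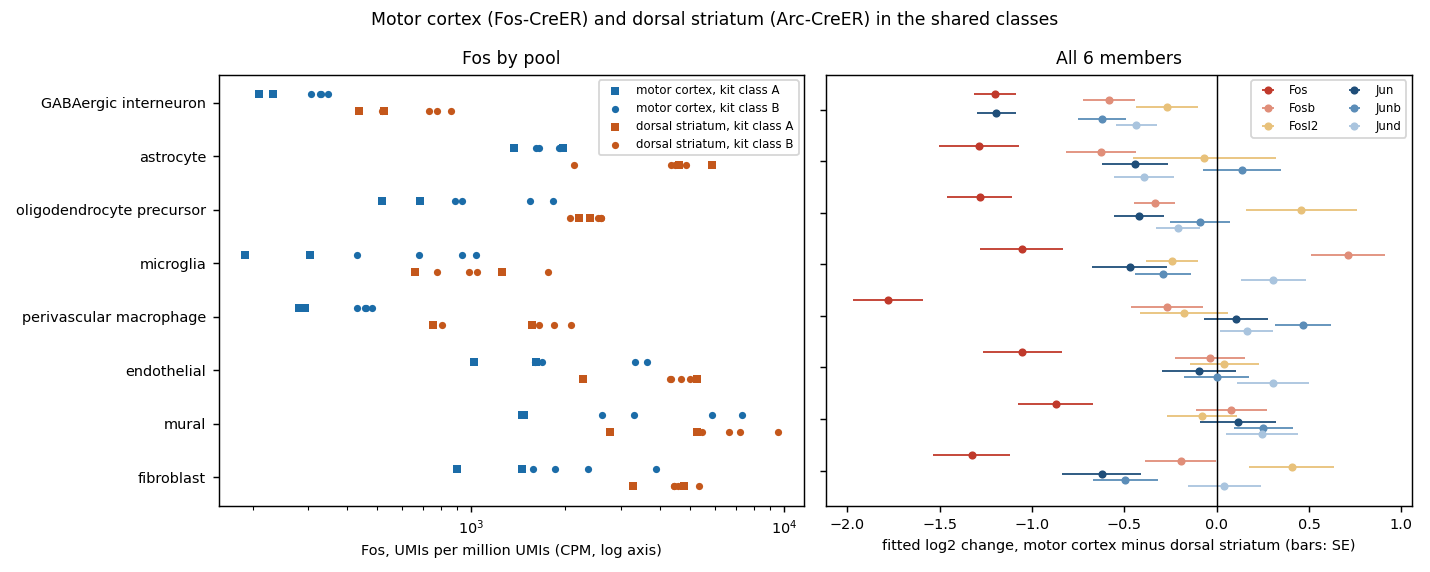
Left, Fos CPM on a log axis in the 8 shared classes, 1 point per mouse pool (blue motor cortex, orange dorsal striatum, squares kit class A). Right, fitted log2 change of motor cortex minus dorsal striatum for each gene with SE bars, where the 8 Fos points run from -1.78 to -0.87.

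D1-like spiny projection neurons, which form the direct pathway, had less of every AP-1 gene than D2-like neurons of the indirect pathway. Fos was 75.5 to 147 CPM (median 103) in D1-like and 220 to 521 (median 403) in D2-like neurons, with no overlap. Its log2 change was -1.84 ± 0.04 (SE of the fit over 6 pools, adjusted p = 1.21e-44, edgeR). That SE is not the spread over pools, where the Fos difference ran from -1.53 to -2.02. Junb was 272 to 406 (median 344) in D1-like and 476 to 759 (median 717) in D2-like neurons, again without overlap. Fosb followed at -1.02 ± 0.05, Junb at -0.99 ± 0.03, Jun at -0.70 ± 0.03, Fosl2 at -0.60 ± 0.06 and Jund at -0.27 ± 0.03. The ranges of Fosb, Jun, Fosl2 and Jund overlapped. All 6 were called, lower in 6 of 6 pools, beside 13.3% of 14731 genes lower in D1-like neurons, where the median change of all genes was -0.01.

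Median depth overlapped, at 2620 to 6069 UMIs per cell in D1-like and 2449 to 4967 in D2-like neurons. The clustering left out the AP-1, other immediate early and heat shock genes, but not genes that move with them. Of the 18409 spiny projection neurons, 8224 were D1-like and 7723 D2-like. With 2 other random seeds of the clustering, the Fos change was -1.70 and -1.83 and that of Jun -0.91 and -0.90.

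In the same comparison 15 of 26 other immediate early genes were lower in D1-like neurons and 4 higher. Arc, a synaptic activity gene, was -1.21 ± 0.05, Egr2 -1.29 ± 0.06 and Egr4 -0.83 ± 0.03, and the orphan nuclear receptor Nr4a1 was -0.62 ± 0.03. Of 12 feedback genes 4 were lower and 0 higher, with Dusp1 at -0.78 ± 0.04. Heat shock genes were lower in 4 of 13, by little (Hsph1 -0.10 ± 0.03). Upstream kinases and factors were 6 higher and 3 lower of 22, and of 9 other AP-1 family genes 2 were lower. Penk and Pdyn, among the genes with known AP-1 sites, separate the pathways by definition and are no finding.

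**Figure D5:**
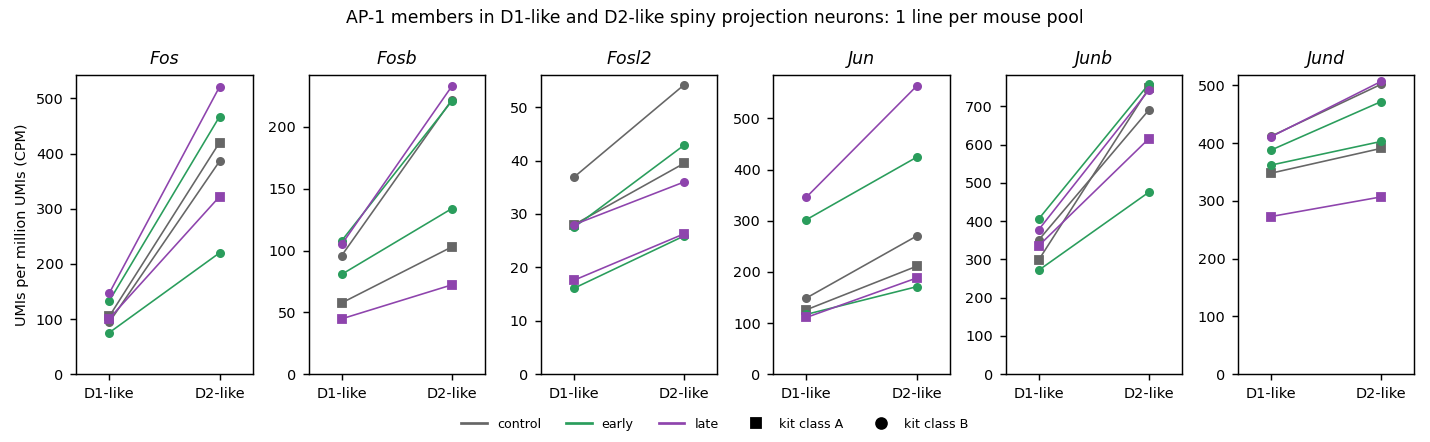
CPM of each gene in D1-like and D2-like spiny projection neurons of dorsal striatum, with 1 line per mouse pool, colours for stage, squares for kit class A and y axes from 0. Every line climbs from D1-like to D2-like, with the largest fold for Fos.

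Cells with a UMI of the reporter feature wpre, a regulatory element in the Ai9 transcript, were compared with cells without. Such cells made up 13.5% to 29.4% of cortical glutamatergic neurons and 15.6% to 23.1% of spiny projection neurons per pool. Microglia, which should lack it, had 2.43% to 8.76%. Microglia were also shallower, at 1228 to 2745 median UMIs per cell. Cortical glutamatergic neurons had 5294 to 12995 and spiny projection neurons 2558 to 5871. Whether the wpre share of neurons exceeds that of microglia at equal depth was not tested. The tdTomato feature itself had a UMI in 3 to 21 cortical glutamatergic neurons per pool, where wpre had 440 to 787. In spiny projection neurons it had 2 to 107 per pool, where wpre had 361 to 861. Differences were small. In motor cortex Fosl2 (0.27 ± 0.06), Junb (0.17 ± 0.03), Jund (0.11 ± 0.03) and Jun (0.10 ± 0.03) were higher in reporter-positive neurons. Fos (0.10 ± 0.03, adjusted p = 0.0774, edgeR) and Fosb (0.12 ± 0.05, adjusted p = 0.184, edgeR) were not called. In striatum Fos (0.27 ± 0.03), Fosb (0.24 ± 0.04) and Junb (0.22 ± 0.02) were higher, and Jun (0.11 ± 0.03), Fosl2 (0.22 ± 0.07) and Jund (0.06 ± 0.02) were not called. The counts, 4 of 6 in motor cortex and 3 of 6 in striatum, stand beside 3.2% and 0.246% of all genes higher. Fos was higher in 4 of 6 cortical pools (147 to 173 CPM against 112 to 173) and 5 of 6 striatal pools (187 to 408 against 150 to 351), with overlapping ranges. All subtypes of a class were joined in these fits. The shares of D1-like and D2-like neurons, which differ in AP-1 levels, were not compared between positive and negative cells.

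Depth also differed between reporter-positive and negative neurons. Positive cortical neurons had 6407 to 15587 median UMIs and negative ones 5127 to 11876, and striatal ones 2727 to 6207 and 2520 to 5752, higher in each pool. When every cell was thinned to 1000 UMIs, 0 of 6 members were called in either region, and the thinned changes went both ways. Thinning also discarded most UMIs of these neurons, which lowers the power of the test. Whether depth made the calls was not tested. In motor cortex Fosl2 was 0.81 and Junb 0.25, above their values in all UMIs, while Fosb, Jun and Jund turned to -0.12, -0.18 and -0.08. In striatum Fosb was 0.20 and Junb 0.18, near their values in all UMIs, and Fos was 0.07. In motor cortex the Jun call was also lost without early 2 or late 1 (both 0.11) or late 2 (0.07), with DESeq2 (0.12) and with stricter cells (0.09), and the Fosl2 call without control 2 (0.23). With no low-count filter the Jun call (0.06) and the Jund call (0.07) were lost. With a threshold of 2 reporter UMIs Jun was 0.03 (adjusted p = 0.86, edgeR) and Jund 0.08, neither called. Cortical Fos passed with doublets kept (0.11) and with another scaling (0.11), and Fosb with doublets kept (0.20). Striatal Jun passed with both other clustering seeds (0.13), with class B pools alone (0.15), with another scaling (0.12) and without control 1, late 1 or late 2.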

How the data were processed

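Per the labels, libraries were 10x 3′ libraries, and the authors deposited unnormalized UMI counts for every gene in each cell. Per the submitters' processing notes Cell Ranger 3.1.0 was used with GRCm38 / mm10, while the file headers name software version 3.0.2. Members and gene lists were chosen with earlier results of these data known. Cells needed 500 genes, 1000 UMIs and a mitochondrial share up to 20%. The cells with the highest Scrublet scores (scanpy 1.11.5), 0.8% per 1000 barcodes, were removed as presumed doublets (5103 cells). Clusters came from 2000 variable genes, 40 components and 20 neighbours (Leiden, resolution 1.5, then 1.0 within classes), without AP-1, other immediate early and heat shock genes. Names needed 3 markers, and naming thresholds were tuned after clusters, but not outcomes, were seen. The striatal neuroblast or progenitor class held 9111 cells, and 7620 and 8135 with 2 other random seeds.

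UMIs were summed per pool and class with at least 20 cells in every pool. Tests used edgeR 4.0.16 (TMM, filterByExpr, quasi-likelihood F test) over all genes, with a call at an adjusted p (Benjamini-Hochberg) under 0.05. They were also run on simulated counts without pool or kit effects, which does not show how they do at the spread of these pools. Stage and region fits carried kit class; other fits carried the pool. DESeq2 1.42.0 was an alternative. CPM levels were logged with a pseudocount of 1. All 6 members were tested in every comparison; named beside them are at most 4 called genes per list with the smallest adjusted p, and the 3 genes most like each member among those reaching 10 CPM. Of the latter, 1 gene is not reported here. Whether pools of a group are separate cohorts is not stated, so p-values speak only for this set of pools. In the edgeR fits the variance of a gene is estimated in part from all genes. Each SE of these fits is the size of the log2 change over the square root of F. Neither p nor SE therefore measures the spread of a gene's own pool differences alone.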

Additional observations from a re-analysis of the deposited data

How the results depend on the processing

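Alternatives were another tool or scaling, no low-count filter, doublets kept, stricter cells, thinned cells, members kept among the clustering genes, no kit class and each pool left out. Class B pools alone, 2 other clustering seeds and neuroblasts or progenitors counted as neurons were added after seeing the data. All 198 alternative values of the neuronal comparison and all 90 of D1-like against D2-like kept direction and call. For the regions only 13 of the 48 gene and class pairs were followed, those called and mural Fos. Of their 269 values, 241 kept both, 22 lost the call and 6, all of mural Fos, gained it. Calls gained by the other pairs are not in this count. Of 192 for the reporter, 162 kept both, 15 lost the call, 10 gained it and 5 reversed.

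Thinning left 0 of 6 reporter calls in either region and gave -0.118 for Fosb, -0.181 for Jun and -0.078 for Jund in motor cortex and -0.005 for Jun in striatum. Thinned values of other members that lost the call were 0.814 (cortical Fosl2), 0.253 (cortical Junb), 0.204 (striatal Fosb), 0.176 (striatal Junb) and 0.066 (striatal Fos). With no low-count filter striatal Jund gave -0.005 and 2 cortical reporter calls were left, as with a threshold of 2 UMIs. With stricter cells, 35 of 42 striatal class pairs and 6 of 24 region pairs were called, and fewer classes kept 20 cells in every pool. Of region pairs still tested, microglial Fos, endothelial Fos and astrocyte Fosb lost the call. With no low-count filter, striatum gave 1 call for early against control, 1 for late against control, 2 for late against early and 1 between hemispheres. Leaving out each pool in turn gave 0 to 3 calls for early against control, 0 to 4 for late against early and 0 to 1 between hemispheres in striatum. Without kit class, the region calls of GABAergic Fosb (-0.652), astrocyte Fosb (-0.608), endothelial Fos (-1.026) and microglial Fos (-0.988) were lost.

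Replicate numbers follow accession order and pair no pools; with kit class and a replicate block, 0 pairs were called in all 6 stage comparisons. Among the neuronal, reporter, D1-like against D2-like and region values, the 2 other seeds changed 1 call, that of striatal reporter Jun. The size of stage effect that 2 pools per group can detect was not tested at the spread seen between these pools. For early against control, 16 genes were called in cortical astrocytes, and 3 higher and 2 lower in cortical fibroblasts. In cortical glutamatergic neurons 0 of 17791 genes were called, and in GABAergic interneurons 0 of 14213.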
